A study of Mus musculus with 16 samples.

Results

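Collagens and other genes of the interstitial matrix, with genes that mark the fibroblasts and mural cells that make it, were followed in the kidneys of Aqp11 knockout mouse pups. The set was a list of 40 genes, chosen with earlier results of these data known. The genes were found on the array by gene symbol, and each was read from its brightest probe set (the group of probes that reports 1 transcript). Of the 40, 38 had a probe set that named them alone, and all 38 were tested among 12508 genes. All 38 lay above the filter on dim genes, a log2 signal of 4.56, on all 16 arrays. Fbn1, which encodes fibrillin 1, had no annotated probe set here, and the probe sets of Loxl2, a lysyl oxidase, also named a second gene, so both were left out of every test.

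The interstitial matrix fills the space between tubules and vessels and is laid down mainly by fibroblasts, pericytes and smooth muscle cells. Fibrillar collagens are secreted as procollagen, trimmed, assembled into fibrils and cross-linked by lysyl oxidases, while fibronectin, tenascin and other adhesive proteins tie the fibrils to cells. Basement membranes, which surround every tubule and capillary, are built instead on type IV collagen and laminin. In kidney fibrosis interstitial fibroblasts are known to deposit more fibrillar collagen and fibronectin and to take on contractile proteins such as smooth muscle actin.

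The arrays came from 7 wild-type pups (Aqp11+/+, 3 males and 4 females) and 9 knockout littermates (Aqp11-/-, 5 males and 4 females), all aged 7 days and labelled as strain C57BL/6J. Aqp11 encodes a member of the aquaporin family that resides in the endoplasmic reticulum. The null allele came from 129/SvEvBrd mice and had been crossed repeatedly onto C57/BL6, and 5 pairs of heterozygous parents gave the pups. Neither group received a treatment that the labels name, and each pup's kidney RNA was hybridised to an array of its own. Arrays are named by the labels' sample numbers, such as 1-2, and whether the first of these marks a litter is not stated. The comparison asks how loss of Aqp11 changes gene expression in the kidney.

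The array values matched the genotype labels and the tissue. By its brightest probe set, Aqp11 had a log2 signal between 7.72 and 8.11 in wild type. In knockout it was at the floor given to low signals, 2.78, on 7 of 9 arrays and at 3.69 at most. A dimmer probe set ran from 4.46 to 5.89 in wild type and from the floor to 5.25 in knockout, so the groups overlapped there. The dimmest ran from 3.55 to 4.85 in wild type and from the floor to 3.06 in knockout. The kidney genes Umod and Slc12a1, of the thick ascending limb, lay at 11.9 or above on every array. Array brightness, the trimmed mean signal, varied 2.13-fold and did not part the genotypes (164 ± 33.2 in wild type, SD, n = 7; 168 ± 44.7 in knockout, SD, n = 9; exact permutation p = 0.848, two-sided). The wild-type arrays 2-1 and 2-2 stood apart in the mean level of 18 macrophage markers, which lay 0.53 and 0.51 above the wild-type mean, against -0.09 or lower on the other wild-type arrays. In these whole kidneys, more cells of a type and more RNA per cell cannot be told apart.

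The 250 bases before the transcription start are shown for Col8a1, Fbln1 and Tnc, the genes with the largest rises among the 22 of the 40 that have an entry in the RefSeq promoter table (assembly GRCm38.p6, 27025 genes). They lie at chr16:57754738-57754987 on the minus strand, chr15:85205758-85206007 on the plus strand and chr4:64046937-64047186 on the minus strand. Capitals mark the GC box GGGCGG on either strand, which reads CCGCCC on the other, and TATAAA, the letters of the TATA box, at any place in the window. Every motif was searched on both strands, and the sequences run 5′ to 3′.
Col8a1: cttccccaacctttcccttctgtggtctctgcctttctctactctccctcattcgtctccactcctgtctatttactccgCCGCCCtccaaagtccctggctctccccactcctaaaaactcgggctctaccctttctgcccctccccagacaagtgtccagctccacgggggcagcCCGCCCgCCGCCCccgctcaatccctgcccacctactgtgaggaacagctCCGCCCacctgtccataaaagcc
Fbln1: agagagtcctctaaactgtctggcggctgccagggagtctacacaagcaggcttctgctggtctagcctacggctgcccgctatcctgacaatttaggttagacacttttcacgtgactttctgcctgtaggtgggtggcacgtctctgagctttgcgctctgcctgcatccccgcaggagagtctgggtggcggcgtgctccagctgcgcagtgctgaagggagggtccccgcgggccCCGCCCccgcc
Tnc: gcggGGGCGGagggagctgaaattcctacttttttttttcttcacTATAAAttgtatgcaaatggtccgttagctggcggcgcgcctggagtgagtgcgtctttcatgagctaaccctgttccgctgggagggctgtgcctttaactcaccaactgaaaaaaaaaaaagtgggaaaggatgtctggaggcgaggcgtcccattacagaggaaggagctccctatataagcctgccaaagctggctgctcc
Col8a1 held 4 GC boxes in this window, Fbln1 1, and Tnc 1 with a match to TATAAA, which began at position -205 from the start. Fbln1 and Tnc have 2 starts each in the table. The start farthest along in the direction of transcription was used, and the positions depend on that choice. Over the genes that rose, 8 of the 16 with an entry held a GC box, against 32.4% of all genes in the table. A GC box was held at a like share, 3 of 6, by the genes with an entry that did not pass the test. TATAAA was held by 3 of the 16 (Col3a1, Postn and Tnc) and 0 of the 6, against 13% of all genes. The CCAAT box was held by 2 of the 16, and by 3 of the 6 genes with an entry that did not pass the test, against 34% of all genes, and TGANTCA, the AP-1 motif, by 1 of the 16, against 6.89%. None of the 16 held a CArG box, the element bound by serum response factor, which 1.38% of all genes held in this window. Col12a1, Mgp, Tagln and Loxl1, which rose more than Tnc, have no entry, so their promoters were not searched for any motif. These matches describe the letters of the window only.

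Most of the matrix genes were higher in the knockout kidney. By limma, with Benjamini-Hochberg adjustment over all genes tested, 26 of the 38 rose, none fell, and 12 did not pass the adjusted p of 0.05. Over all 12508 genes 9.34% rose and 8.34% fell. The set had been chosen with earlier results of these data known, so this contrast is no independent test. The log2 change was positive for 34 of the 38, with a median of 0.29 against 0.00 over all genes. For 10 of the 38, every knockout array lay above every wild-type array, as for 2.91% of all genes, and for none did every knockout array lie below every wild-type array, as for 2.44% of all genes. These genes were Col1a1, Col5a2, Col12a1, Fn1, Tnc, Mgp, Tagln, Loxl1, Fbln1 and Bgn. Rises of at least 1.5-fold were seen for 6 of the 38, against 3.36% of all genes, and the other rises were smaller. At an unadjusted p under 0.05, 1 of the 38 was lower (Fbln5). With the deposited scaling left as it is, 7 of the 38 rose, against 2.28% of all genes, and all 26 changes stayed positive. Without the wild-type arrays 2-1 and 2-2, 25 of the 38 rose, against 8.67% of all genes.

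**Figure D1:**
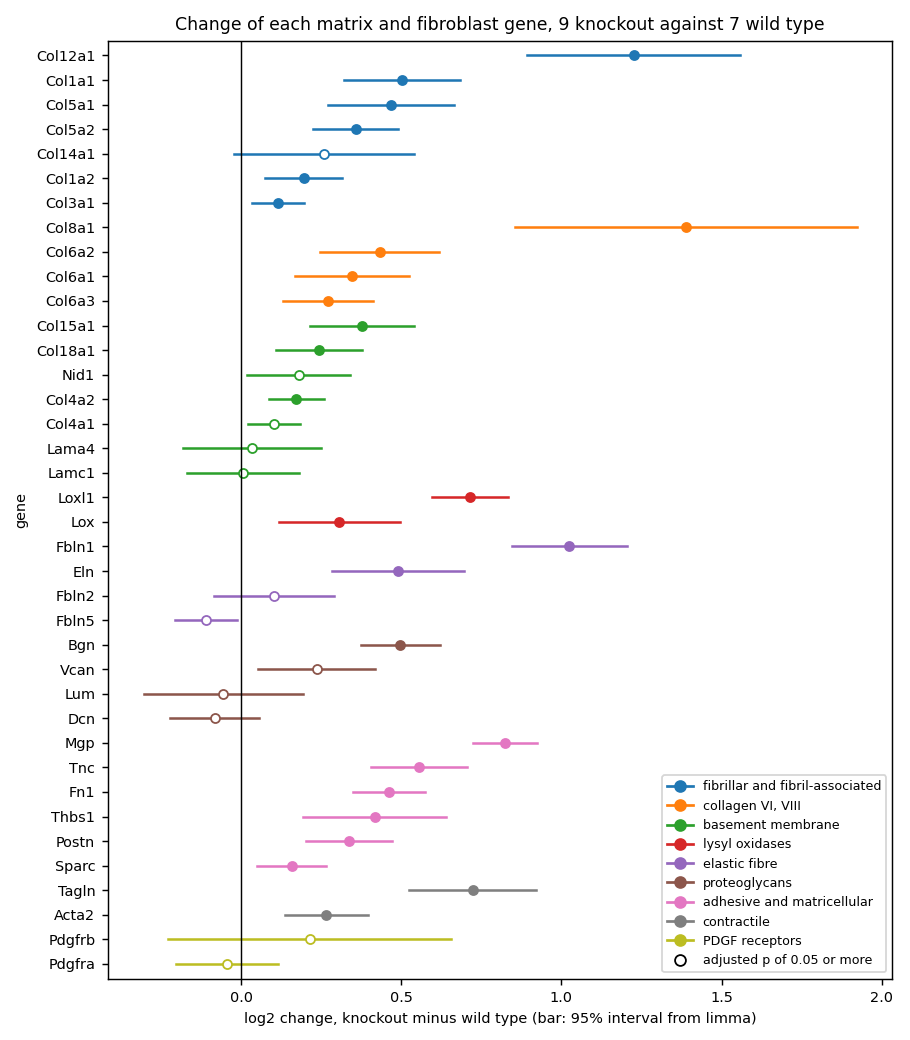
Log2 change of each of the 38 tested genes, knockout minus wild type, with the 95% interval from limma, grouped and coloured by role; open symbols did not pass an adjusted p of 0.05. The 26 filled symbols all lie to the right of 0, from Col3a1 at 0.12 to Col8a1 at 1.39, and the open symbols lie between -0.11 and 0.26.

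Fibrillar collagens and their associated collagens rose in 6 of 7 cases, with a median log2 change of 0.36. Col12a1, which encodes a collagen that sits on the surface of collagen I fibrils, changed most. Its log2 signal ran from 7.88 to 8.69 in wild type (median 8.37) and from 9.06 to 10.18 in knockout (median 9.59), so the groups did not overlap. The rise was 2.34-fold (log2 change 1.23 ± 0.16 SE, adjusted p = 1.26e-05).

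Col1a1, the alpha 1 chain of type I collagen, ran from 10.97 to 11.56 in wild type (median 11.38) and from 11.59 to 12.08 in knockout (median 11.80). The groups did not overlap, although the highest wild-type array, 5-1, lay close to the lowest knockout array, 1-2. The rise was 1.42-fold (log2 change 0.50 ± 0.09 SE, adjusted p = 0.000279). Its partner chain Col1a2 changed less, from a wild-type range of 11.99 to 12.37 (median 12.18) to a knockout range of 12.20 to 12.50 (median 12.40). Here 6 of 9 knockout arrays lay above the highest wild-type array, and the rise was 1.15-fold (log2 change 0.20 ± 0.06 SE, adjusted p = 0.0214). Its adjusted p was 0.054 without wild-type array 1-1 and 0.057 without wild-type array 3-1.

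Col3a1, the chain of type III collagen that is mixed with type I in interstitial fibrils, had the smallest rise. It ran from 12.80 to 13.00 in wild type (median 12.82) and from 12.89 to 13.08 in knockout (median 12.94), and only 2 knockout arrays lay above the highest wild-type array, 2-1. The rise was 1.08-fold (log2 change 0.12 ± 0.04 SE, adjusted p = 0.0448). It lost its call under 21 of 33 other settings, 12 of them the loss of a single array, with an adjusted p up to 0.089 when an array was left out.

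Col5a1 and Col5a2 encode chains of type V collagen, which starts and thins type I fibrils. Col5a1 ran from 9.19 to 9.85 in wild type (median 9.63) and from 9.65 to 10.21 in knockout (median 10.02). All knockout arrays but 1-2 lay above the highest wild-type array, and the rise was 1.38-fold (log2 change 0.47 ± 0.09 SE, adjusted p = 0.00128). Col5a2 rose 1.28-fold with no overlap (log2 change 0.36 ± 0.06 SE, adjusted p = 0.000379). Col14a1, a further fibril-associated collagen, changed by 0.26 without passing the test (adjusted p = 0.216). Without knockout array 1-2, its lowest, the change was 0.34 and passed (adjusted p = 0.0404).

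All 4 genes of collagen VI and VIII rose, with a median log2 change of 0.39. Col8a1, a short-chain network collagen of vessel walls and mesenchyme, had the largest change of the 38. It ran from 4.76 to 6.38 in wild type (median 5.99) and from 6.31 to 8.18 in knockout (median 7.19). Only knockout array 5-2 lay below the highest wild-type array. The rise was 2.62-fold (log2 change 1.39 ± 0.26 SE, adjusted p = 0.000543). The chains of type VI collagen, which forms beaded filaments around cells, rose with log2 changes of 0.43 for Col6a2, 0.35 for Col6a1 and 0.27 for Col6a3 (adjusted p = 0.00162, 0.0067 and 0.00675). The groups overlapped for all 3 chains.

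Both tested lysyl oxidases, the enzymes that cross-link collagen and elastin, rose. Loxl1, which acts mainly on elastic fibres, ran from 9.86 to 10.03 in wild type (median 9.92) and from 10.47 to 10.81 in knockout (median 10.64). The gap between the groups was wider than the spread within either, and the rise was 1.64-fold (log2 change 0.71 ± 0.06 SE, adjusted p = 1.84e-08). Lox rose 1.24-fold (log2 change 0.31 ± 0.09 SE, adjusted p = 0.0218), and only 2 knockout arrays lay above the highest wild-type array, 2-1. Its adjusted p was between 0.055 and 0.058 when wild-type array 1-1, 3-1 or 4-1 was left out. For Loxl2, the probe sets that also name Gm21451 went from a mean of 9.58 to 9.97 and from 6.91 to 7.44, given here without a test.

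Of the elastic fibre genes, Fbln1 and Eln rose and Fbln2 and Fbln5 did not pass the test. Fbln1, which encodes fibulin 1, a glycoprotein of elastic fibres and basement membranes, ran from 8.95 to 9.69 in wild type (median 9.27) and from 10.14 to 10.51 in knockout (median 10.23). The groups did not overlap, and the rise was 2.03-fold (log2 change 1.02 ± 0.09 SE, adjusted p = 4.11e-08). Eln, which encodes elastin itself, ran from 9.23 to 9.78 in wild type (median 9.39) and from 9.58 to 10.24 in knockout (median 9.97). The groups overlapped, with 6 knockout arrays above the highest wild-type array, and the rise was 1.41-fold (log2 change 0.49 ± 0.10 SE, adjusted p = 0.00123). Fbln2 had a log2 change of 0.10 (adjusted p = 0.508) and Fbln5, which is needed for elastic fibre assembly, one of -0.11 (adjusted p = 0.115). For Fbln5, 8 of 9 knockout arrays lay below the lowest wild-type array, at 11.63, and 1 lay above the wild-type mean. It still did not pass the adjusted threshold.

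All 6 genes of adhesive and matricellular proteins rose, with a median log2 change of 0.44. Mgp, which encodes matrix Gla protein, an inhibitor of calcification, had the smallest p of the 38. It ran from 11.82 to 12.08 in wild type (median 11.94) and from 12.62 to 12.87 in knockout (median 12.75). The groups lay far apart, and the rise was 1.77-fold (log2 change 0.82 ± 0.05 SE, adjusted p = 1.92e-10). Tnc, which encodes tenascin C, a matrix protein of developing and injured tissue, ran from 8.97 to 9.42 in wild type (median 9.08) and from 9.48 to 9.93 in knockout (median 9.69). The rise was 1.47-fold with no overlap (log2 change 0.56 ± 0.07 SE, adjusted p = 1.12e-05).

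Fn1, which encodes fibronectin, the scaffold on which collagen fibrils assemble, ran from 11.26 to 11.64 in wild type (median 11.54) and from 11.88 to 12.12 in knockout (median 11.97). The groups did not overlap, and the rise was 1.38-fold (log2 change 0.46 ± 0.05 SE, adjusted p = 3.32e-06). Thbs1, which encodes thrombospondin 1, an activator of latent TGF-beta, rose with a log2 change of 0.42 (adjusted p = 0.0092). Postn, which encodes periostin, rose with a log2 change of 0.34 (adjusted p = 0.000771), and its lowest knockout array, 1-2, lay below the wild-type mean. Sparc, a collagen-binding glycoprotein, rose with a log2 change of 0.16 (adjusted p = 0.0393) and lost its call under 20 of 32 other settings, 11 of them the loss of a single array, with an adjusted p up to 0.083 when an array was left out.

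Of the 4 proteoglycan genes only Bgn rose. Bgn, which encodes biglycan, ran from 10.81 to 11.18 in wild type (median 10.98) and from 11.34 to 11.65 in knockout (median 11.46), with no overlap. It rose 1.41-fold (log2 change 0.50 ± 0.06 SE, adjusted p = 3.67e-06). Its close relative Dcn, which encodes decorin, and Lum, which encodes lumican, did not pass the test, with log2 changes of -0.08 and -0.05 (adjusted p = 0.462 and 0.821) and 95% intervals of -0.22 to 0.06 and -0.30 to 0.19. Vcan, a large proteoglycan of provisional matrix, had a log2 change of 0.24 (adjusted p = 0.0711) that passed without knockout array 2-4 (adjusted p = 0.0494).

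Both contractile genes rose, and neither PDGF receptor gene passed the test. Tagln, which encodes the actin-binding protein transgelin, ran from 10.29 to 11.02 in wild type (median 10.53) and from 11.04 to 11.63 in knockout (median 11.28). The groups did not overlap, although wild-type array 2-1 and knockout array 3-3 lay close, and the rise was 1.65-fold (log2 change 0.72 ± 0.09 SE, adjusted p = 1.38e-05). Acta2, which encodes smooth muscle actin, ran from 11.998 to 12.29 in wild type (median 12.09) and from 12.23 to 12.67 in knockout (median 12.33). The rise was smaller, 1.20-fold, with 7 knockout arrays above the highest wild-type array (log2 change 0.27 ± 0.06 SE, adjusted p = 0.00432).

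Pdgfrb, the receptor of pericytes and fibroblasts, ran from 9.20 to 10.27 in wild type (median 10.05) and from 9.51 to 11.01 in knockout (median 10.01). The groups overlapped almost whole, with a log2 change of 0.21 and a 95% interval of -0.23 to 0.66 (adjusted p = 0.565). Its second probe set was less scattered, with a log2 change of 0.20 ± 0.07 SE (adjusted p = 0.0864). Pdgfra, a receptor of mesenchymal fibroblasts, had a log2 change of -0.04 and a 95% interval of -0.20 to 0.12 (adjusted p = 0.77), and no knockout array lay above its highest wild-type array.

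Of the 7 basement membrane genes of the set 3 rose, and the median log2 change was 0.17. These were Col15a1 (log2 change 0.38, adjusted p = 0.00151), Col18a1 (0.24, adjusted p = 0.0105) and Col4a2 (0.17, adjusted p = 0.00529). Col15a1 and Col18a1 encode collagens of basement membrane zones that carry sugar chains, and Col4a2 a chain of the network collagen of every basement membrane. Col4a1, the chain that pairs with Col4a2, ran from 12.61 to 12.75 in wild type (median 12.67) and from 12.69 to 12.92 in knockout (median 12.75). All 9 knockout arrays lay above its wild-type mean, and its log2 change of 0.10 ± 0.04 SE missed the threshold (adjusted p = 0.0701). The laminin chain genes Lama4 and Lamc1 had log2 changes of 0.03 and 0.01 (adjusted p = 0.872 and 0.971). Nid1, which encodes nidogen, a linker of laminin and collagen IV, had one of 0.18 (adjusted p = 0.122), which was 0.23 and passed without wild-type array 2-1 (adjusted p = 0.0265).

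**Figure D2:**
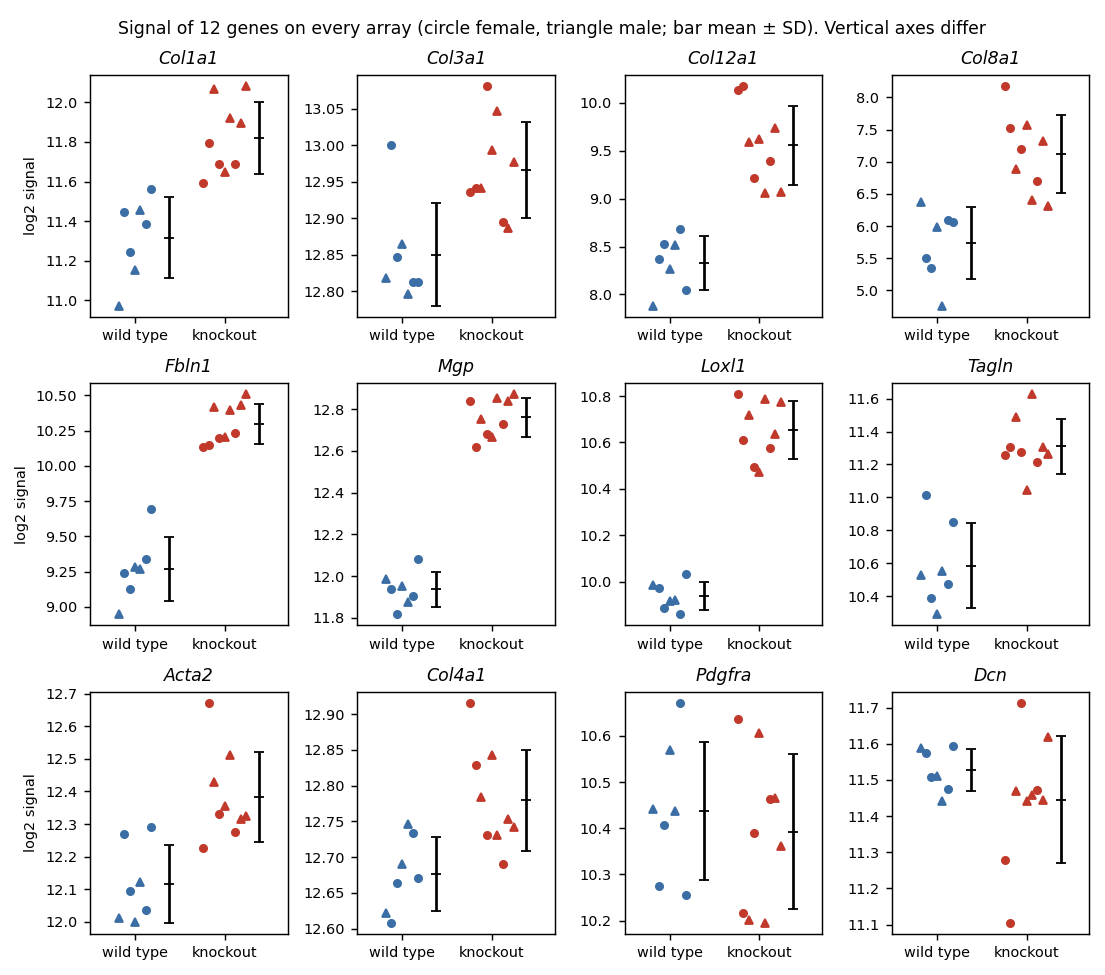
Log2 signal of 12 of the genes on each array (circles female, triangles male), with the mean ± SD of the 7 wild-type and 9 knockout arrays beside them; the vertical axes differ. Fbln1, Mgp and Loxl1 show a gap between the groups, Acta2 and Col3a1 overlap, Pdgfra spans nearly the same range in both groups, and Dcn spreads more widely in knockout.

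Other probe sets of the same genes gave the same direction in 34 of 36 cases. These 36 probe sets, of 28 genes, passed the filter and were fitted with all 23193 probe sets that did, of which 6.76% rose and 5.82% fell. Of the 23 that belong to genes called higher, all had a positive change and 19 rose. Of the 13 that belong to genes not called, none passed the test by limma, and 1, of Pdgfrb, had an unadjusted p under 0.05. Fbln1 had changes of 1.34 and 0.85 beside its 1.02, Loxl1 0.99 beside 0.71, and Col12a1 1.19 beside 1.23. Col3a1, whose brightest probe set had the smallest rise, had a second with a log2 change of 0.24 (adjusted p = 0.0271). Col1a1 differed between its probe sets: the second, at a mean of 8.41 in wild type and 8.51 in knockout, had a log2 change of 0.11 ± 0.10 SE (adjusted p = 0.594). The remaining 13 probe sets of the genes lay below the filter.

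**Figure D3:**
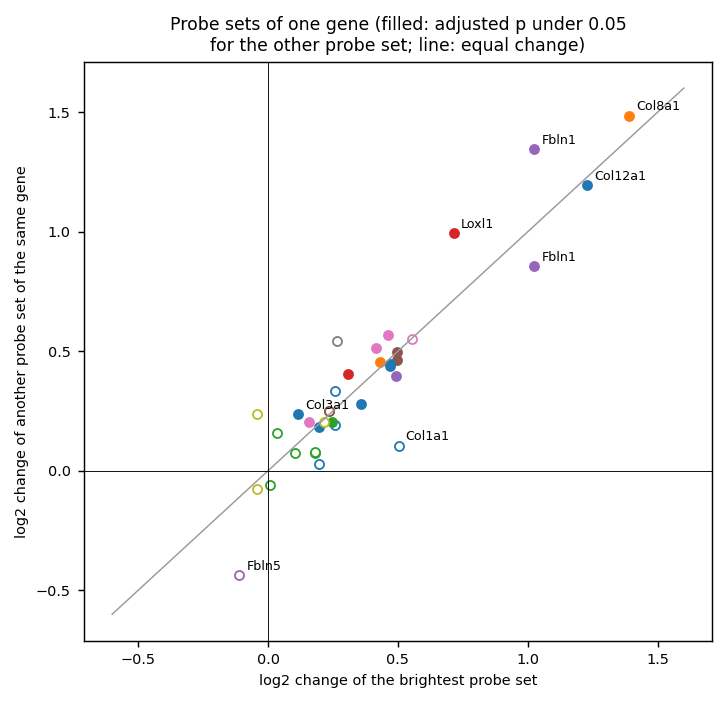
Log2 change of each of the 36 other tested probe sets (vertical) against that of the brightest probe set of the same gene (horizontal), coloured by role; the line marks equal change and filled points passed an adjusted p of 0.05. Most points lie near the line, Loxl1 lies above it, and Col1a1 lies below it at 0.11 against 0.50.

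Averaged over the 38 genes, each array's deviation from the wild-type mean ran from -0.12 (array 1-1) to 0.09 (array 5-1) in wild type and from 0.30 (array 1-2) to 0.40 (array 4-4) in knockout. The wild-type array 5-1 was the highest of its group for 19 of the 38 genes, and 1-1 the lowest for 16. In the knockout group, 5-2 was the highest for 10 genes and 1-2 the lowest for 15. Array 1-2 was low for Postn, Col5a1, Col14a1 and Lama4. It was the highest knockout array for 7 genes, Col8a1, Col4a1, Col4a2, Loxl1, Thbs1, Pdgfra and Pdgfrb. The same array had the highest mean of the macrophage markers, 1.82 above wild type against 1.05 to 1.51 on the other knockout arrays, and the part of this in the matrix values was not tested.

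**Figure D4:**
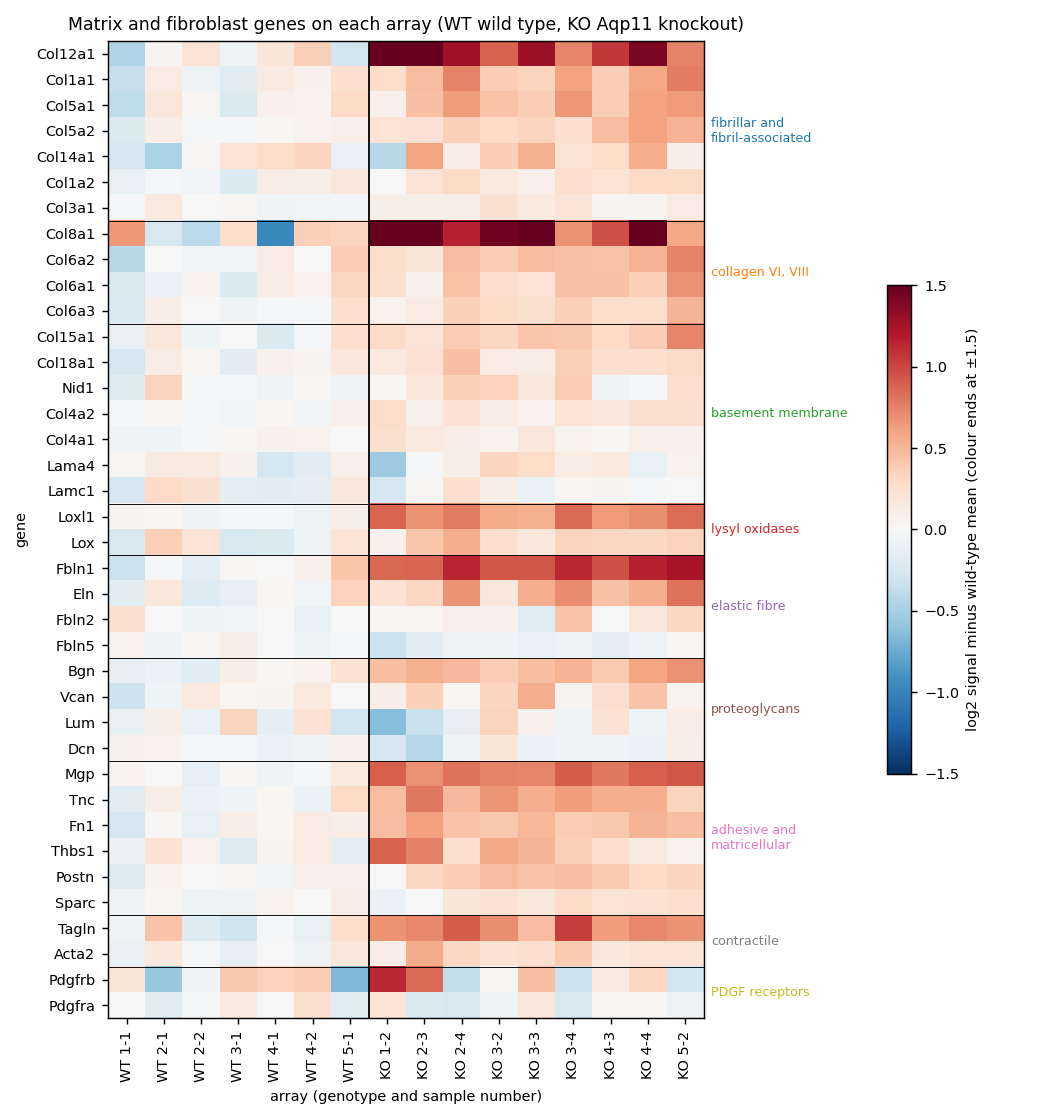
Log2 signal of the 38 genes on each of the 16 arrays minus the gene's wild-type mean, ordered by role; the colour scale ends at ±1.5. Red rows run across all 9 knockout arrays for Col12a1, Loxl1, Fbln1, Bgn and Mgp, while the rows of Pdgfrb, Pdgfra, Lum and Dcn mix red and blue within the knockout group.

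Of the 38 genes, 33 had a positive change in males and 33 in females. All 26 genes that rose were positive in both sexes, an outcome that their choice on these same arrays favours. The change was more positive in males than in females for 31 of the 38, against 56.6% of all genes. Col5a1 had a log2 change of 0.75 in males and 0.20 in females, Eln 0.74 and 0.22, and Col1a1 0.73 and 0.28. Pdgfrb went the other way, with -0.35 in males and 0.77 in females. The interaction of genotype and sex passed limma's adjusted threshold for none of the 38 (smallest adjusted p = 0.456) and for 0% of all genes. At an unadjusted p under 0.05 it passed for 12 of the 38, against 10.8% of all genes, and in 11 of these 12 the change was more positive in males. Array brightness was not balanced over the sexes: 1 of 5 knockout males was among the 8 brighter arrays, against 3 of 4 knockout females, 2 of 3 wild-type males and 2 of 4 wild-type females. Its part in the difference was not tested. At a given genotype none of the 38 differed between the sexes by limma (smallest adjusted p = 1.00), and 0.048% of all genes did. At an unadjusted p under 0.05, 2 did (Fbln5 lower and Thbs1 higher in females), against 3.13% of all genes. In females alone 10 of the 38 rose, against 2.58% of all genes, and in males alone 24, against 6.24%.

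Of the 38 genes, 32 had a positive change within the 8 brighter arrays taken alone and 34 within the 8 dimmer arrays. All 26 genes that rose were positive in both, which their choice on these same arrays again favours. The largest differences among the 26 were those of Col8a1, at 1.82 in the brighter and 1.08 in the dimmer arrays, Col12a1, at 1.53 and 0.95, and Thbs1, at 0.68 and 0.20. Col1a1 was at 0.48 and 0.46. Fbln1 (1.02 and 0.96) and Mgp (0.78 and 0.85) were also close in both.

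Genes around the matrix were taken from lists written with earlier results of these data in view. With the deposited scaling left as it is, no gene of collagen processing passed the limma threshold, while 5 of the other interstitial matrix genes, 1 of the other basement membrane genes, 3 of the receptors and 1 of the signalling genes rose and none of these fell. Over all genes 2.28% rose and 1.25% fell with that scaling. With quantile normalization 9.34% of all genes rose and 8.34% fell, the shares that stand beside the counts of each list below. Of 20 tested genes of collagen processing, 9 rose and 2 fell (median log2 change 0.17). P4hb, a subunit of the enzyme that hydroxylates collagen prolines, and Serpinh1, the collagen chaperone of the endoplasmic reticulum, rose with changes of 0.23 and 0.25 (adjusted p = 0.000168 and 0.000967). P3h2, a prolyl 3-hydroxylase that acts on collagen IV, fell by 0.64 on the log2 scale (adjusted p = 6.34e-07), and Colgalt2, a collagen galactosyltransferase, fell by 0.59 (adjusted p = 0.00156). Sparcl1, which is among the 9, is a collagen-binding glycoprotein and no processing enzyme. Leaving out 1 array gave 4 rises without wild-type array 1-1, 5 without wild-type array 4-1 and 10 without knockout array 1-2. It gave 6 without wild-type array 2-1, 2-2, 3-1 or 4-2, and also without knockout array 2-4, 3-2, 3-4, 4-3, 4-4 or 5-2. The count was 8 without knockout array 3-3, and 9 without knockout array 2-3 or wild-type array 5-1.

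Of 39 other tested genes of the interstitial matrix, 16 rose and 1 fell (median 0.23), against 9.34% and 8.34% of all genes. Tgfbi, a TGF-beta-induced adhesive protein, rose by 0.83 on the log2 scale (adjusted p = 6.71e-09), Emilin1, of elastic fibres, by 0.48 (adjusted p = 0.000114) and Ccn2, a matricellular protein induced by TGF-beta, by 0.84 (adjusted p = 0.000136). Ltbp2, a fibrillin-binding protein, rose by 2.09 (adjusted p = 4.69e-06), with 1 wild-type array at the floor, so its change may be understated. The gene that fell, Fmod, which encodes the small proteoglycan fibromodulin, was picked out after its values were seen (log2 change -0.47, adjusted p = 0.048). The count that fell was 0 on leaving out 1 of the wild-type arrays 1-1 and 3-1 or the knockout arrays 1-2, 2-3, 3-2, 3-3, 4-3 and 4-4, and 2 on leaving out wild-type array 2-2 or 5-1.

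Of 17 other tested basement membrane genes, 1 rose and 4 fell (median -0.12), against 9.34% and 8.34% of all genes. Lamb3, a chain of an epithelial laminin, rose by 1.73 on the log2 scale (adjusted p = 6.33e-08). Egfl6, a basement membrane protein, fell by 0.80 (adjusted p = 0.000119), and the glomerular basement membrane chains Col4a4 and Col4a3 fell by 0.47 and 0.41 (adjusted p = 0.000582 and 0.00218). Col4a6, named after its values were seen, fell by 0.42 (adjusted p = 0.0113). None of the 17 fell with the deposited scaling or in females alone, where 1.25% and 2.62% of all genes fell.

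Of 23 matrix receptor genes, 7 rose and 1 fell (median 0.10), against 9.34% and 8.34% of all genes. Cd44, the hyaluronan receptor, rose by 1.94 on the log2 scale (adjusted p = 1.93e-07), the syndecan Sdc1 by 0.74 (adjusted p = 2.17e-05) and the fibrillar collagen receptor Ddr2 by 0.52 (adjusted p = 5.97e-05). Itga8, an integrin chain of kidney mesenchyme and mesangium, fell by 0.38 (adjusted p = 0.00195), and 2 genes fell without knockout array 3-2. Of 10 genes of TGF-beta and PDGF signalling, 4 rose and 1 fell (median 0.14), beside the same shares of all genes. The ligand genes Tgfb1, Tgfb3 and Pdgfb rose by 0.67, 0.65 and 0.38 (adjusted p = 5.97e-05, 0.000197 and 0.00112), and the receptor gene Tgfbr2 by 0.23 (adjusted p = 0.000817). Pdgfc, named after its values were seen, fell by 0.32 (adjusted p = 0.00206), and 2 genes fell without knockout array 2-3 or 3-3.

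**Figure D5:**
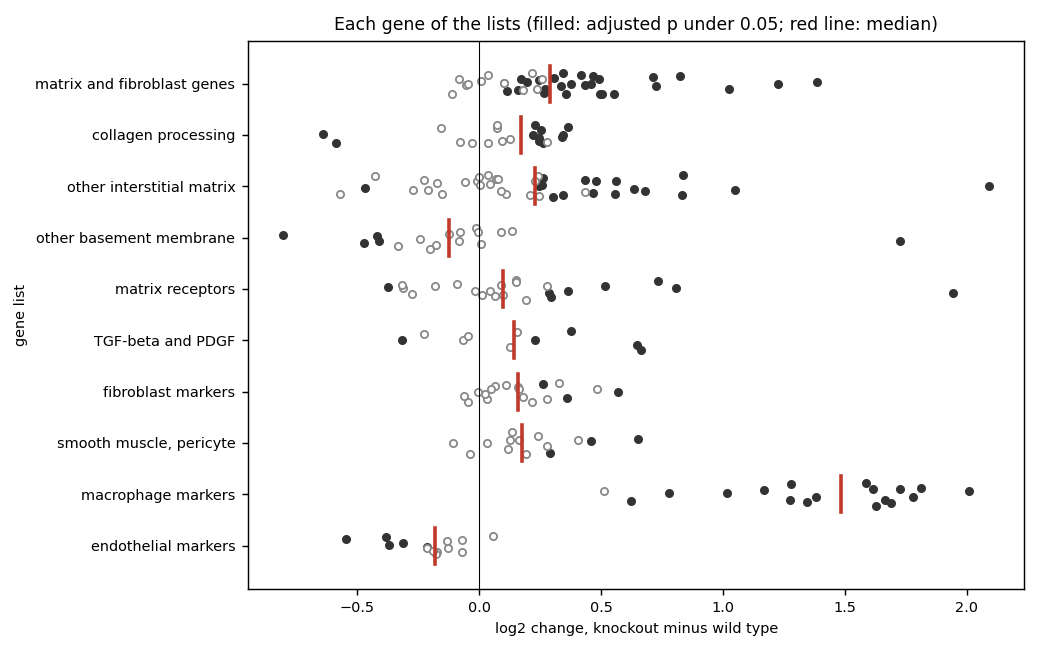
Log2 change of each tested gene, knockout minus wild type, in the matrix and fibroblast set and in the lists around it; filled points passed an adjusted p of 0.05 and the red line marks each list's median. The macrophage markers lie far to the right with a median of 1.48, the other basement membrane genes and the endothelial markers have medians below 0, and the fibroblast markers have a median of 0.16.

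Of 18 tested markers of fibroblasts outside the set, 3 rose, against 9.34% of all genes, and the median log2 change was 0.16. Their mean level lay between 7.72 and 7.91 on the wild-type arrays and between 7.92 and 8.08 on the knockout arrays. Vim, which encodes the intermediate filament of mesenchymal cells, rose by 0.36 (adjusted p = 5.60e-05) and the surface marker Thy1 by 0.57 (adjusted p = 0.000359), both without overlap. Mfap5, which is also in the list of other matrix genes, rose by 0.26 (adjusted p = 0.0252), and missed the threshold without wild-type array 1-1 (adjusted p = 0.0686) or 4-1 (adjusted p = 0.0551). Cdh11, a mesenchymal cadherin, changed by 0.22 and missed the threshold (adjusted p = 0.0921), and passed without wild-type array 4-2 (adjusted p = 0.0453) or knockout array 2-4 (adjusted p = 0.0457). Clec3b lay at the floor on 6 of 7 wild-type and 6 of 9 knockout arrays and was not tested.

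Of 14 smooth muscle and pericyte markers, 3 rose, against 9.34% of all genes. These were Actg2 by 0.65, Cnn1 by 0.46 and Rgs5 by 0.29 (adjusted p = 0.0193, 0.0311 and 0.0318). The mean level over the 14 markers lay between 8.0 and 8.28 on the wild-type arrays and between 8.18 and 8.44 on the knockout arrays. Only 1 rose without wild-type array 1-1 or 2-2, and Mcam, at 0.24, did not pass (adjusted p = 0.0648). Over the 16 cases with 1 array left out, Cnn1 lost its call in 8 and Rgs5 in 6, and Mcam passed in 4. Lmod1 lay at the floor on 4 of 7 wild-type and 6 of 9 knockout arrays.

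Macrophage markers rose in 17 of 18 cases, against 9.34% of all genes. They had a median log2 change of 1.48 and a mean level of 6.20 to 7.07 in wild type and 7.59 to 8.36 in knockout. C1qa rose by 1.73, Fcgr3 by 1.67, C1qc by 1.81 and Mrc1 by 1.02 (adjusted p = 2.16e-09, 2.16e-09, 8.34e-09 and 7.13e-09), each without overlap. Of 14 endothelial markers 5 fell (median -0.18), against 8.34% of all genes. Among the 5, Emcn fell by 0.37, Ehd3 by 0.38, Sox17 by 0.55 and Pecam1 by 0.21 (adjusted p = 0.000252, 0.000332, 0.0041 and 0.00641). Of 11 markers of kidney epithelium 7 fell and 1 rose (median -0.37), against 8.34% and 9.34% of all genes. The proximal tubule genes Aqp1, Slc34a1 and Cubn fell by 0.71, 0.64 and 0.72, and the collecting duct gene Aqp2 rose by 0.90 (adjusted p = 6.62e-06, 3.32e-05, 0.000187 and 6.69e-05). Without wild-type array 3-1, knockout array 3-4 or knockout array 5-2, 2 of the 11 rose. The mean level of the endothelial list lay between 8.91 and 9.18 on the wild-type arrays and between 8.69 and 8.89 on the knockout arrays, and that of the epithelial list between 11.19 and 11.37 and between 10.74 and 11.15. With the deposited scaling left as it is, 15 macrophage markers rose, 4 epithelial markers fell and 1 rose, and no fibroblast, smooth muscle and pericyte or endothelial marker passed the test. Over all genes 2.28% rose and 1.25% fell with that scaling. In females alone 1 endothelial marker fell, against 2.62% of all genes. What part these cell types have in the matrix genes' values was not tested.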

How the data were processed

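Kidney RNA of 16 pups was measured on Affymetrix Mouse Genome 430 2.0 arrays, 1 array per animal. The authors deposited linear signal intensity; the submitters' processing notes name GCOS 1.3, and the sources used here do not give any scaling of arrays to each other. After 64 control probe sets were left out of 45101, arrays were quantile normalized, signals below the 20th percentile (log2 2.78) were raised to it, and values were put on the log2 scale. This floor understates changes of dim genes, and quantile normalization would mask any change in the total amount of mRNA.

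Gene names came from the platform annotation, with symbols updated through RefSeq: 34945 name 1 gene, 932 name several and 9160 are unlisted. Each gene was read from the probe set brightest over all arrays, and tests took genes that exceeded the 40th percentile of an array on 7 or more arrays. The genotypes were compared by limma 3.58.1 (R 4.3.3; lmFit and trended eBayes, with genotype alone in the design), calling genes at a Benjamini-Hochberg adjusted p of 0.05. Sex entered as an interaction and as a second term. A single measure was tested by exact permutation. The fit was tested on simulated data, where it recovered 16% of log2 changes of 0.25, 54% of 0.5, 92% of 1 and 100% of 2. The simulation gave 137 calls, 6 of them false, against 2211 in the data, so its shares may differ from those here. A gene that did not pass the test may therefore still have a small change.

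The set and all lists were chosen with earlier results of these data known. Full values are given for the 12 largest called changes with every knockout array on one side of the wild-type mean and for Col1a1, Col1a2, Col3a1, Col4a1, Fn1, Acta2, Tagln and Pdgfrb. From each further list, up to 4 genes with the smallest p are named. Alternatives were other normalizations, floors, filters, probe set choices, terms, variance models and subsets of arrays. Figures were drawn with matplotlib.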

Additional observations from a re-analysis of the deposited data

Results flagged for a closer look

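Among 158 groups of values checked (each gene described, in each genotype), 16 had 1 array farther from the rest than Dixon's 95% critical value allows. Chance alone flags about 1 group in 20. Values are log2 signal.

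Knockout array 1-2 accounted for 7 of them. It was low for Postn (10.38), Col5a1 (9.65), Col14a1 (9.40) and Lama4 (7.99), and high for C1qa (9.61), Ccn2 (11.48) and Tgfbr2 (10.99). In the matrix set, knockout array 5-2 was also high for Col15a1 (9.76), wild-type array 2-1 high for Col3a1 (13.00) and wild-type array 1-1 high for Fbln2 (6.98).

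Among the genes of the other lists, knockout array 2-3 was low for Col4a3 (8.51) and Aqp1 (10.04). Knockout array 2-4 was low for Mrc1 (8.08) and high for Tgfb3 (6.88). Wild-type array 4-2 was high for Rgs5 (11.84), and wild-type array 2-2 was low for Colgalt2 (5.84).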

How the results depend on the processing

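Over 33 other settings, 16 of which leave out 1 array, the 26 genes that rose kept a positive change wherever they had a value, and 6 kept their call in every setting (Col8a1, Col12a1, Fbln1, Loxl1, Mgp and Tagln). With the most variable probe set 32 of the 38 were tested, and Acta2, Lox and Sparc had no value. With the deposited scaling left as it is, 7 of the 38 rose, and 285 genes rose and 156 fell over all genes. Females alone gave 10 (302 and 307 over all genes), and brighter arrays alone gave 17 (575 and 652). Over all genes, males alone gave 729 higher and 574 lower, dimmer arrays alone 624 and 462, and the most variable probe set 764 and 641. Leaving out 1 array gave 22 to 27 of the 38 higher and 0 lower, and 992 to 1189 higher and 859 to 1054 lower over all genes. Median centring gave 19 of the 38 (7.8% of all genes higher), and lost Acta2, Col18a1, Col3a1, Col4a2, Col1a2, Lox and Sparc. The first sample number as a block left 26 (11% of all genes higher). Whether that number marks a litter is not stated. The cause of these differences was not tested, although subsets hold fewer animals. For arrays the number of animals, and for dim genes the floor, limits the precision.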
